A study of Homo sapiens with 15 samples.

Results

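The peaks described here are all FOXA1 peaks on chr16, chr17, chr19 and chr22 (hg19) in 12 deposited peak lists, chosen by chromosome alone and by no measured value. They number 17127 of the 249079 peaks in the 12 lists, from 266 in the shortest list to 3056 in the longest, and are set against the 224516 peaks on the other 18 autosomes. These 4 chromosomes were taken as gene-dense, which the gene table bears out with 1 exception on the spans used here. In RefSeq, chr19 carried 24.2 protein-coding genes per Mb and chr17 carried 14.3, ranks 1 and 2 of the 22 autosomes. On chr16 there were 9.38 and on chr22 8.67, ranks 4 and 5, and chr11 with 9.64 stood above both without being among the 4. Together the 4 chromosomes made up 9.85% of the autosomal span and 20.5% of the autosomal protein-coding genes.

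FOXA1 localisation was measured by chromatin immunoprecipitation and sequencing (ChIP-seq) in 22Rv1, an established human prostate carcinoma line, with 1 library per condition. Parental cells gave 6 lists: DMSO (0.1%), the stereoprobes WX-02-23 and WX-02-43 (each 20 uM), PladB, a small interfering RNA against FOXA1 (siFOXA1) and a control one (siControl). Treatments with compound or vehicle lasted 3 h. The PladB dose of the parental sample is 100 nM in its own label and 10 nM in the shared protocol, and the labels state no time or dose for either small interfering RNA, nor for doxycycline (dox). PladB is the usual short name of pladienolide B, which binds the splicing complex that contains PHF5A. The 6 remaining lists came from 22Rv1 cells overexpressing the Y36C form of PHF5A and carrying a dox-inducible FOXA1, wild type (WT) in 1 line and C258A in the other, where a cysteine is replaced by alanine. Each engineered line was profiled without dox but with DMSO (noDox), with dox and DMSO, and with dox and WX-02-23 (20 uM). The labels mention no removal of the resident FOXA1, and the antibody is labelled only as FOXA1, so induced and resident protein cannot be told apart within a list. The study's design text asks how stereoprobes alter FOXA1 localisation in these cells.

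FOXA1 is a forkhead transcription factor that can bind its recognition sequence on nucleosomes and open closed chromatin, which is why it is called a pioneer factor. In prostate luminal cells it binds mostly at enhancers, where it prepares sites for the androgen receptor. Gene-dense chromosomes are rich in GC bases, promoters and open chromatin, whereas the forkhead recognition sequence is rich in A and T.

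With 1 library per condition no test between conditions was possible, and no p-value is given. The 95% intervals below are for counting error alone, as if every peak were independent, although the peaks of a list share a library. Sequencing depth is unknown, and the number of peaks in a list can move with depth and enrichment. The part of either in the results was not tested, but results were repeated at equal list length, on the highest-scoring peaks of each list. The score is the authors' value for each peak, whose definition is not given, and serves only to rank peaks within a list.

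Counted over all 1 Mb bins, FOXA1 peaks were sparser on the gene-dense chromosomes than on the other autosomes, with intervals below 1 in 11 of the 12 lists. They were sparsest in the cells with induced FOXA1. The ratio of peaks per Mb on the 4 chromosomes to peaks per Mb on the other 18 autosomes was 0.858 (95% interval 0.824 to 0.894) with DMSO in parental cells. It was 0.937 (0.903 to 0.973) with siControl, though 1.0005 without chr16, and 0.905 (0.871 to 0.940) with PladB. With the stereoprobes it was 0.747 (0.706 to 0.792) for WX-02-23 and 0.816 (0.773 to 0.861) for WX-02-43. The parental lists other than siFOXA1 thus lay below an even spread over the genome but above the engineered lists, although the intervals of both stereoprobes overlapped that of WT noDox. At equal list length that order turned, with 0.704 for WT noDox, 0.673 for WX-02-23 and 0.677 for WX-02-43. Without dox the ratio was 0.724 (0.667 to 0.786) in the WT line and 0.651 (0.607 to 0.699) in the C258A line. For dox with DMSO they were 0.474 (0.450 to 0.499) for WT and 0.393 (0.360 to 0.428) for C258A. For dox with WX-02-23 the ratios were 0.512 (0.484 to 0.541) for WT and 0.410 (0.383 to 0.439) for C258A. All 4 induced lists lay below all 8 others, with no overlap of intervals. The knockdown list was the exception, at 0.977 with an interval of 0.861 to 1.11 that includes 1. All these ratios count bins without any peak as well. Over bins that held a peak in any list, the ratio in parental cells was 0.914 with DMSO, 0.964 with PladB and 0.998 with siControl. Part of the parental sparseness thus went with empty bins. With dox and DMSO the ratio over such bins was 0.504 in WT and 0.418 in C258A cells.

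**Figure D1:**
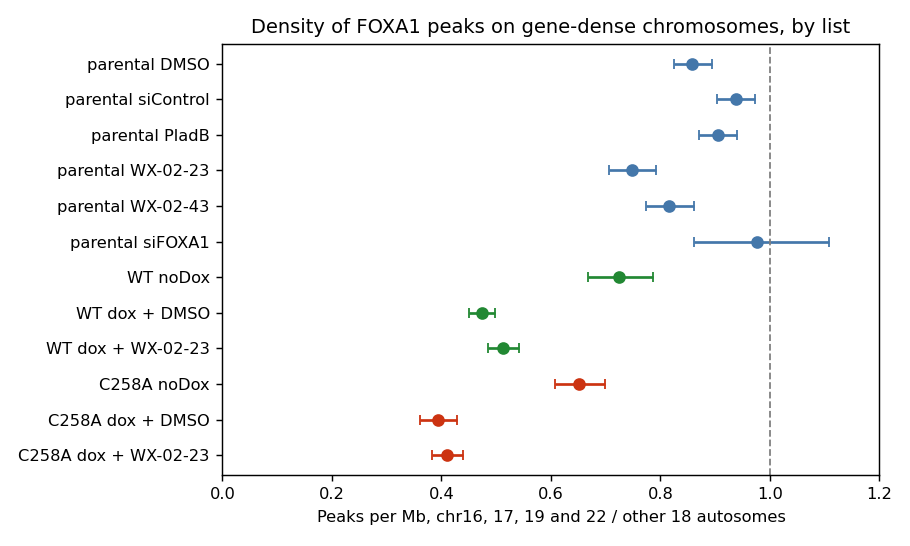
Ratio of FOXA1 peaks per Mb on chr16, chr17, chr19 and chr22 to peaks per Mb on the other 18 autosomes (horizontal axis, no unit), in each of the 12 lists (vertical axis, parental blue, WT green, C258A red). Points are ratios, bars 95% counting intervals and the dashed line equal density. The 4 lists with dox lie between 0.393 and 0.512, left of all others.

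As numbers of peaks, the 4 chromosomes held 2529 of 29506 autosomal peaks with DMSO in parental cells, or 8.57% (Wilson 95% interval 8.26 to 8.90). In the WT line they held 615 of 8388 without dox (7.33%, 6.79 to 7.91) and 1526 of 31022 with dox and DMSO (4.92%, 4.68 to 5.17). The WT list with dox was longer than the parental DMSO list, so its lower share was not accompanied by a shorter list. In the C258A line the share was 6.64% (6.22 to 7.09) of 12391 peaks without dox and 4.12% (3.79 to 4.47) of 13074 with dox and DMSO. When every list was reduced to its 2758 highest-scoring autosomal peaks, the density ratio was 0.735 for parental DMSO, 0.704 for WT noDox, 0.391 for WT with dox and DMSO, and 0.359 for C258A with dox and DMSO. The 4 induced lists were again the lowest, but the interval of WT with WX-02-23 (0.497, 0.420 to 0.588) overlapped those of C258A noDox (0.628, 0.539 to 0.731) and of both parental stereoprobe lists.

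The 4 chromosomes did not behave alike. With DMSO in parental cells, chr19 had 10.75 peaks per Mb and chr17 10.5, ranks 6 and 8 of 22, so the chromosomes with the most genes were among the denser ones. By contrast chr16, with 7.42 peaks per Mb, and chr22, with 6.63, stood at ranks 20 and 21. These densities count bins without any peak, and those of single chromosomes were not repeated over occupied bins. How far the ranks go with empty bins was therefore not tested. With siControl the same pair was dense, with chr17 at 12.8 and chr19 at 12.5 (ranks 5 and 6), and the other pair sparse, with chr16 at 9.19 and chr22 at 8.06 (ranks 20 and 21). In the WT line with dox and DMSO, chr19 had 3.70 peaks per Mb and was last of the 22 autosomes. On chr17 there were 6.90 (rank 17), on chr16 5.64 (rank 20) and on chr22 4.33 (rank 21). In the C258A line with dox and DMSO, chr19 with 1.07 and chr22 with 1.15 peaks per Mb were last, and the other 18 autosomes ranged from 2.19 to 7.58. Without dox, chr19 was already at rank 20 in WT and 21 in C258A, and chr17 at ranks 15 and 16. By rank, the change from parental to engineered cells was thus mainly that of chr19 and chr17 and was largely present without dox. It left chr16 and chr22 low, as in all the parental lists but siFOXA1. Ranks do not show how far a chromosome lay below the others, and that distance grew with dox. In WT, chr19 had 2.02 peaks per Mb without dox and 3.70 with dox and DMSO, and chr22 had 1.96 and 4.33. The other 18 autosomes together had 2.98 and 11.3. Across the 22 autosomes, Spearman's rho between peaks per Mb and genes per Mb was 0.11 with DMSO in parental cells, -0.24 in WT and -0.41 in C258A cells without dox, and -0.58 in WT and -0.62 in C258A cells with dox and DMSO. These correlations describe 22 chromosomes that share 1 library each and differ in length and base composition, and no p is given. Peaks per Mb and genes per Mb in them both count bins without any peak.

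**Figure D2:**
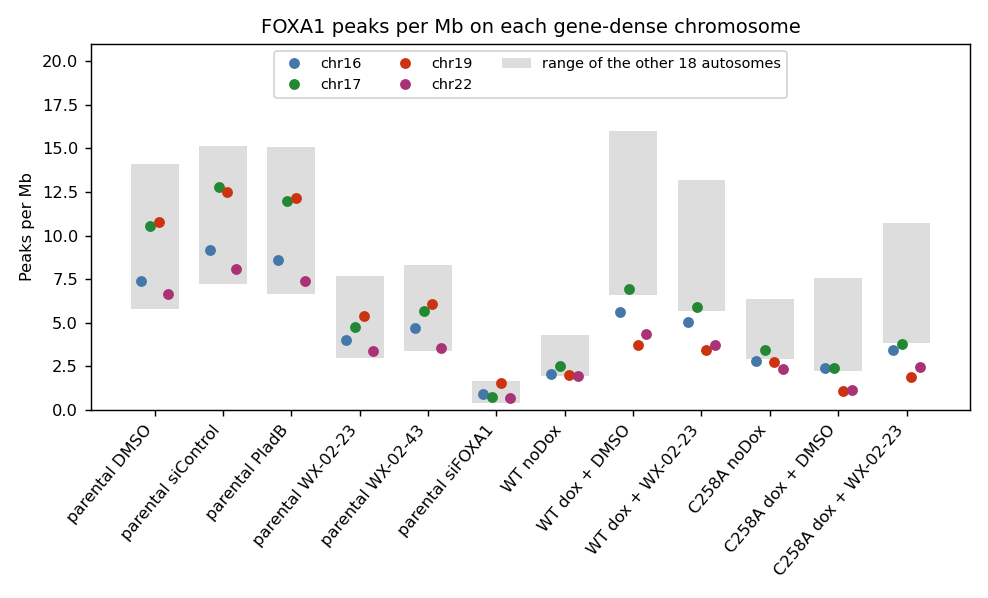
FOXA1 peaks per Mb (vertical axis) on chr16, chr17, chr19 and chr22 (coloured points) in each of the 12 lists (horizontal axis), with a grey bar from the lowest to the highest of the other 18 autosomes. In parental DMSO chr17 and chr19 stand inside the grey bar at 10.5 and 10.75, and with dox chr19 stands below it at 3.70 in WT and 1.07 in C258A cells.

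Counted in 1 Mb bins, the 285 bins of the 4 chromosomes held a median of 9 peaks with DMSO in parental cells (quartiles 4 and 14), against 10 (6 and 14) in the 2609 bins of the other autosomes. In the WT line the medians were 2 against 3 without dox and 5 against 10 with dox and DMSO. In the C258A line they were 2 against 4 without dox and 1 against 4 with dox and DMSO. Bins with no peak made up 13.3% on the 4 chromosomes and 5.79% elsewhere in parental DMSO, and 32.6% against 13.3% in C258A with dox and DMSO. Over bins that held a peak in any list, the density ratio was 0.914 for parental DMSO and 0.504 for WT with dox and DMSO. The chromosome ends also differed. In parental DMSO the outer 5 bins at each end held 0.977 times the density of the rest on the 4 chromosomes and 0.635 times on the other autosomes. In WT with dox and DMSO these values were 0.628 and 0.398. The median distance from a peak to its nearest neighbour was 24.1 kb on the 4 chromosomes and 23.8 kb elsewhere in parental DMSO. In WT with dox and DMSO it was 32.4 against 17.3 kb.

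Induction of FOXA1 added fewer peaks on the gene-dense chromosomes than elsewhere. In the WT line the number of peaks with dox and DMSO was 2.48 times that without dox on the 4 chromosomes and 3.79 times on the other autosomes. The ratio was 1.83 on chr19 (121 peaks without and 222 with dox), 2.21 on chr22 (102 and 225), 2.75 on chr17 (206 and 566) and 2.76 on chr16 (186 and 513). These were ranks 22, 21, 19 and 18 of 22, and the other autosomes ran from 2.52 on chr20 to 5.16 on chr13, the autosome with the fewest genes per Mb. In the C258A line the direction differed between the chromosome sets, as the 4 chromosomes had 823 peaks without and 538 with dox, 0.654 times as many, while the others had 1.08 times as many. Here chr19 had 166 and 64 peaks (0.386 times), chr22 120 and 60 (0.5 times), chr17 281 and 197 (0.701 times) and chr16 256 and 217 (0.848 times). Spearman's rho between these ratios and genes per Mb was -0.81 in WT and -0.76 in C258A over the 22 autosomes, as a description with the same shared libraries. In both lines all 4 chromosomes had fewer peaks per noDox peak than the median autosome, and chr19 had the fewest.

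**Figure D3:**
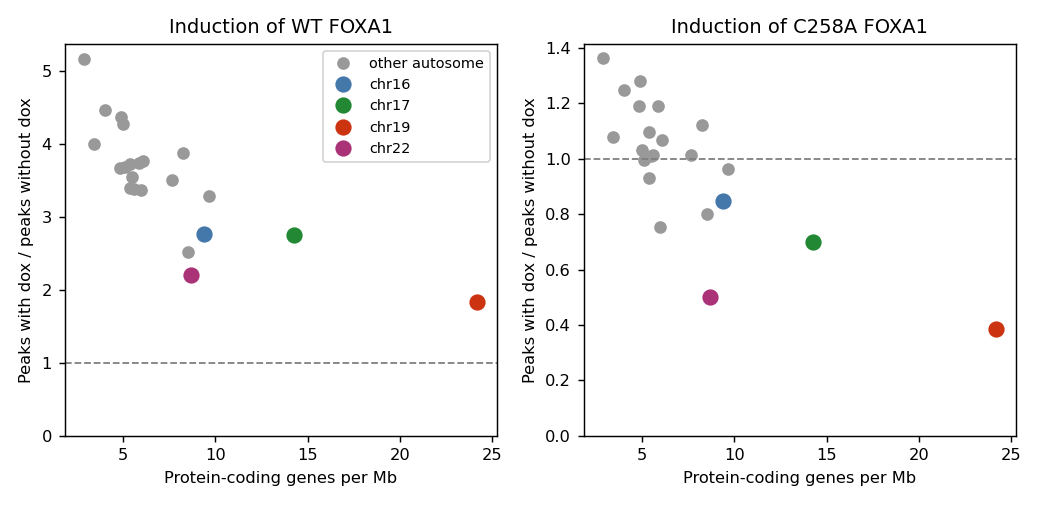
Number of peaks with dox and DMSO divided by the number without dox (vertical axis) against protein-coding genes per Mb (horizontal axis) for each of the 22 autosomes, in the WT line (left) and the C258A line (right). Grey points are the other 18 autosomes and the dashed line is no change. The lowest point is chr19 in both panels, at 1.83 and 0.386.

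Peaks present before induction were also found again less often on these chromosomes. A peak of the reference list was called kept if it overlapped a peak of the other list by at least 1 bp, and lost if it did not. A gained peak is one of the other list that overlaps no reference peak. In WT cells, 409 of 615 noDox peaks on the 4 chromosomes were kept with dox (66.5%, 95% interval 62.7 to 70.1), against 74.2% on the other autosomes, a difference of -7.74 points (-11.7 to -3.99). The other autosomes ran from 59.1% on chr20, the lowest of the 22, to 80.9% on chr13. The 4 chromosomes lay within that range, at ranks 18 to 21. Lost peaks numbered 206, or 33.5%, beside 26.3% of all autosomal peaks. Gained peaks numbered 1121 of 1526, or 73.5%, beside 80.3% of all autosomal peaks with dox. The kept difference was -1.74 points where a reciprocal overlap of 50% was required, so its size depends on how much overlap counts as shared. In C258A cells, 224 of 823 noDox peaks were kept (27.2%, 24.3 to 30.4), against 36.3% elsewhere, a difference of -9.05 points (-12.1 to -5.79). The other autosomes ran from 31.0% to 41.4% in this line, and chr16 with 34.8% lay among them. Here 599 peaks were lost, or 72.8% beside 64.3% of all autosomal peaks, and 314 of 538 were gained, or 58.4% beside 66.2%. Of the peaks gained with dox in the WT line on all autosomes, 4.50% lay on the 4 chromosomes, while they held 9.33% of those lost.

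Of the peaks that WT induction added on the 4 chromosomes, 25.9% overlapped a parental DMSO peak, against 20.1% on the other autosomes. In the C258A line with dox and DMSO, 27.7% of them were called, against 35.0% elsewhere. In these libraries the added peaks on gene-dense chromosomes thus overlapped parental DMSO peaks in a larger share of cases, and C258A peaks in a smaller one. The highest-scoring additions all lay on chr22. At chr22:28441849-28443170 the score was 3100 in WT with dox and DMSO, 3100 in WT with dox and WX-02-23, 2025 in C258A with dox and DMSO and 2565 in C258A with dox and WX-02-23, and no peak was called in the other 8 lists. At chr22:25551010-25552912 the scores in the same order were 2422, 1943.5, 1339 and 2216, again with no peak elsewhere. At chr22:32829755-32830984 they were 1969, 259.7, 645 and 956, and a peak of score 216 was also called in C258A noDox. All 3 places were called in both lines with dox, with WT and with C258A FOXA1.

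Merging all 12 lists gave 4950 sites on the 4 chromosomes and 61974 on the other autosomes. Sites called in induced lists alone made up 20.9% (19.8 to 22.1) on the 4 chromosomes and 37.5% (37.1 to 37.9) elsewhere. On chr19 they were 12.7%, the lowest of the 22 autosomes, followed by chr22 with 20.1%, chr17 with 22.5% and chr16 with 26.0%. The opposite class, sites called in parental lists other than siFOXA1 alone, made up 49.1% (47.7 to 50.5) against 31.4% (31.0 to 31.7). On chr19 they were 60.4%, the highest of the 22, and chr17 (48.4%), chr22 (47.4%) and chr16 (41.7%) held ranks 2 to 4. Sites called in all 11 lists other than siFOXA1 made up 2.83% (2.40 to 3.33) against 3.99% (3.84 to 4.15). The gene-dense chromosomes were therefore richest in sites called in parental lists other than siFOXA1 alone and poorest in sites called in induced lists alone. In all 5 of these parental lists and no engineered list, 4.36% (3.83 to 4.97) were called, against 3.795% (3.65 to 3.95). These intervals overlapped and no interval was computed for the difference, so a parental excess among sites called in all 5 was not settled. In all 4 induced lists and no other, 3.56% (3.07 to 4.11) were called, against 7.31% (7.11 to 7.52). The lines differ in PHF5A and in FOXA1 together, so which of the differences goes with these classes of sites cannot be told apart.

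In parental cells treated with the stereoprobe WX-02-23, fewer DMSO peaks were found again on the gene-dense chromosomes than on the others. Of 2529 DMSO peaks on the 4 chromosomes, 1037 were kept (41.0%, 39.1 to 42.9), against 47.8% elsewhere, a difference of -6.77 points (-8.76 to -4.75). Lost peaks numbered 1492, or 59.0%, beside 52.8% of all autosomal DMSO peaks. By chromosome, 38.8% of the DMSO peaks of chr19 and 38.8% of those of chr17 were kept (ranks 22 and 21 of 22), 40.6% on chr22 (rank 19) and 46.2% on chr16 (rank 16). The other autosomes ran from 40.4% to 51.0%, so chr16 and, just above the lowest, chr22 lay among them. Gained peaks numbered 198 of 1253, or 15.8%, beside 15.3% of all autosomal WX-02-23 peaks, a difference of 0.491 points from the other autosomes (-1.51 to 2.69). A difference beyond counting error was thus seen for lost peaks, and for gained peaks the interval included 0.

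With WX-02-43 at the same dose and time, 1289 of the 2529 DMSO peaks were kept (51.0%, 49.0 to 52.9), against 55.9% elsewhere, a difference of -4.88 points (-6.92 to -2.85), or -7.36 without chr16. On chr16 57.8% were kept, the highest share of the 22 autosomes. By contrast chr17 (49.3%), chr19 (47.9%) and chr22 (47.5%) held ranks 20 to 22. Lost peaks numbered 1240, or 49.0%, beside 44.6% of all autosomal DMSO peaks. Gained peaks numbered 125 of 1437, or 8.70%, beside 5.97% of all autosomal WX-02-43 peaks, which was 2.97 points above the other autosomes (1.58 to 4.58), or 1.82 without chr19. Both comparisons share the DMSO list. Set directly against each other on the 4 chromosomes, WX-02-23 kept 9.96 points fewer of the DMSO peaks than WX-02-43 (difference -9.96, -11.9 to -8.01), and on the other autosomes the difference was -8.08 (-8.67 to -7.49). Of the 2529 peaks, 833 were kept with both, 204 with WX-02-23 only, 456 with WX-02-43 only and 1036 with neither. As shares these were 32.9%, 8.07%, 18.03% and 41.0%, against 39.4%, 8.36%, 16.4% and 35.8% on the other autosomes. At equal list length the difference on the 4 chromosomes was -15.3 points (-18.0 to -12.5), and -11.9 (-12.7 to -11.1) elsewhere. Taking WX-02-43 as the reference, 893 of its 1437 peaks were also called with WX-02-23 (62.1%, against 68.0% elsewhere, difference -5.85 points, -8.48 to -3.27, or -3.10 without chr17 and -3.44 weighted to score). The other 544, or 37.9%, were not, beside 32.5% of all autosomal peaks, and 361 of the 1253 WX-02-23 peaks, or 28.8%, had no WX-02-43 peak, beside 28.6%.

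High-scoring DMSO peaks were kept more often than low-scoring ones, and members had slightly lower scores, so the comparison was repeated within 10 equal bins of the DMSO list by score. With WX-02-23 the kept share was lower on the 4 chromosomes in 10 of 10 bins. In the bin of highest scores it was 95.9% against 97.7%, in the fourth 50% against 58.5%, in the fifth 37.1% against 45.0%, in the sixth 27.0% against 35.6% and in the lowest 9.60% against 11.9%. In the fourth, the fifth and the sixth the intervals did not overlap. Weighted to the scores of the members, the difference was -4.42 points with WX-02-23 and -2.265 points with WX-02-43, so part of each difference went with score. With WX-02-43 all peaks of the highest bin were kept on both sets of chromosomes, and in the lowest bin 11.3% were kept on the 4 chromosomes and 9.55% elsewhere.

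**Figure D4:**
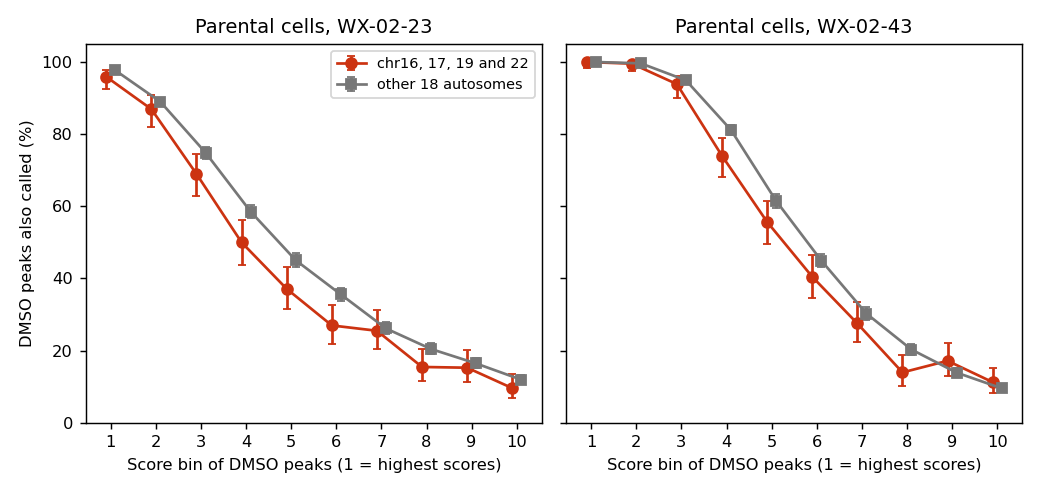
Share of parental DMSO peaks also called with WX-02-23 (left) or WX-02-43 (right), in percent, by score bin of the DMSO list from highest (1) to lowest (10). Red points are chr16, chr17, chr19 and chr22, grey squares the other 18 autosomes, and bars 95% Wilson intervals. With WX-02-23 the red points lie below the grey in every bin, as in the fourth at 50% against 58.5%.

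Among the peaks lost with WX-02-23, the one with the highest DMSO score lay at chr16:65030159-65031288. Its score was 2223 with DMSO, 2154 with PladB, 1899.5 with siControl and 969 with WX-02-43, and no peak was called with WX-02-23 or siFOXA1. In the WT line it scored 270.95 without dox and 474 with dox and DMSO, with no peak with WX-02-23, whereas in the C258A line it scored 322 without dox, 278 with dox and DMSO and 247 with WX-02-23. The peak was thus missing with WX-02-23 in parental and WT cells and present with it in C258A cells. The next, chr17:35525400-35526412, scored 1739 with DMSO, 1908 with siControl, 2052 with PladB and 529.95 with WX-02-43, and lacked a peak with WX-02-23 and with siFOXA1. In the engineered lines it was called in all 6 lists, with 427 without dox, 1227 with dox and DMSO and 629 with WX-02-23 in WT, and 876, 593 and 668.5 in C258A. Here the loss in parental cells had no counterpart in the WT line. At chr16:68449915-68451052 the scores were 1389 with DMSO, 986 with siControl, 1403 with PladB and 607 with WX-02-43, and in the engineered lines 181 in WT with dox and DMSO, 232 in C258A noDox and 96.5 in C258A with dox and DMSO. It was not called in the other 5 lists, WX-02-23 among them in all 3 kinds of cell.

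Peaks lost with WX-02-43 were weaker. The strongest, chr19:18140322-18141320, scored 675 with DMSO, 1149 with siControl, 733 with PladB and 91.5 with WX-02-23. In the engineered lines it scored 156 in WT noDox, 115 in WT with dox and DMSO, 215 in C258A noDox and 94.5 in C258A with WX-02-23, and was not called in the other 4 lists. The top DMSO score among the losses was thus 675 for WX-02-43 and 2223 for WX-02-23. Taken over all 1492 members lost with WX-02-23, 83.0% were called with siControl, 80.4% with PladB and 30.6% with WX-02-43, against 79.9%, 80.1% and 31.5% on the other autosomes. In the WT line with dox and DMSO, 15.3% of them were called, against 24.9% elsewhere.

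The strongest gain with each stereoprobe fell in the same stretch of chr19, which was also called with both small interfering RNAs. The WX-02-23 peak at chr19:36794068-36798919 was 4852 bp wide and scored 737, and overlapping peaks had scores of 585 in the WX-02-43 list, 821 in siControl, 272 in siFOXA1 and 103 in PladB, with none with DMSO or in the engineered lines. The WX-02-43 peak at chr19:36783354-36788292 scored 667, and the same stretch had scores of 504 in siControl, 272 in siFOXA1 and 584 in WX-02-23. In the knockdown list this stretch was covered by the widest peak of all members, chr19:36759164-36800959, 41796 bp long. The strongest gain with WX-02-23 outside it, second of all, was chr17:37925867-37926838, which scored 641 with WX-02-23, 94.6 with siControl and 102 with PladB. In the engineered lines it scored 400.1 in WT with dox and DMSO, 1026 in WT with WX-02-23 and 303 in C258A with WX-02-23, and it was not called in the other 6 lists. Of the 198 members gained with WX-02-23, 13.6% overlapped a siFOXA1 peak, against 4.89% on the other autosomes, and 20.2% a peak of WT with WX-02-23, against 31.7%.

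With PladB and with siControl the kept share on gene-dense chromosomes was close to that elsewhere, and the gained share was higher there. The higher gained share was not particular to them. On chr21, outside the set, it was the highest of the 22 autosomes, 25.5% with PladB and 31.4% with siControl. The 4 chromosomes held ranks 2 to 5 in each. PladB and siControl were set against the same DMSO list, so their gained differences are not independent. As siControl is itself a control, its difference is one between control libraries. With PladB, 2216 of 2529 DMSO peaks were kept, 87.6% against 88.4% elsewhere (difference -0.733 points, -2.13 to 0.553, or 0.472 weighted to score), and the 313 lost were 12.4%, beside 11.7% of all autosomal peaks. Gained peaks with PladB numbered 694 of 2881, or 24.1%, beside 19.3% of all autosomal peaks, 5.21 points above the other autosomes (3.62 to 6.87). With siControl, 2249 were kept, 88.9% against 88.1% (difference 0.868 points, -0.470 to 2.10, or 2.09 weighted to score), and the 280 lost were 11.1%, beside 11.9% of all autosomal peaks. Gained peaks with siControl numbered 822 of 3056, or 26.9%, beside 21.4% of all autosomal peaks, 6.09 points above the other autosomes (4.48 to 7.76). Of the members gained with PladB, 58.1% (403 of 694) were also called with siControl, against 54.3% on the other autosomes. Weighted to the scores of the members, the gained differences were 3.91 points for PladB and 4.196 for siControl.

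Knockdown of FOXA1 left 266 peaks on the gene-dense chromosomes, 0.0870 times the 3056 of siControl, and on the other autosomes 0.0835 times. Among the 4 chromosomes the lowest ratio was on chr17 at 0.0562 (1050 and 59 peaks), and the highest on chr19 at 0.121 (751 and 91). The other autosomes ran from 0.0444 on chr12 to 0.143 on chr4. Of the 3056 siControl peaks, 93 were kept (3.04%, 2.49 to 3.71), against 3.73% elsewhere (difference -0.683 points, -1.28 to 0.0190, or 1.73 at equal list length), and 2963 were lost, 97.0% beside 96.3% of all autosomal peaks. The peaks that were kept were mainly strong ones, as 58 of the 93 came from the highest of 10 score bins of siControl, where 21.6% were kept, against 21.3% on the other autosomes. The strongest of them, chr17:78733921-78735237, scored 3126 with siControl and 134.5 with siFOXA1. It was called in all 12 lists, with 3100 with DMSO, 3100 with PladB, 1029.7 with WX-02-23 and 1649 with WX-02-43, with 799.8, 839.5 and 488 in WT without dox, with dox and with WX-02-23, and with 1240.3, 231 and 347 in C258A. At chr16:69943169-69944807 the score was 3100 in all 5 parental lists other than siFOXA1, 163 with siFOXA1, 1952, 2463 and 1307 in WT, and 3100, 1237 and 2209 in C258A in the same order. Both places had a peak in every library, the knockdown included.

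Gained peaks made up 171 of the 266 siFOXA1 peaks on the 4 chromosomes, or 64.3%, beside 55.6% of all autosomal siFOXA1 peaks and 9.63 points above the other autosomes (3.40 to 15.5). At equal list length the difference was 0.437 points (-5.19 to 5.35). The knockdown peaks also lay close together, since the median distance to the nearest neighbour was 68.8 kb on the 4 chromosomes and 177 kb elsewhere. Their median width was 541 against 489 bp. Bins with at least 10 siFOXA1 peaks, a group chosen after the counts were seen, numbered 5 on the 4 chromosomes and held 68 of the 266 peaks (25.6%), against 20.3% of the siFOXA1 peaks in 18 bins elsewhere. Of the 5, 1 lay on chr16 and the other 4 on chr19, with 19 siFOXA1 peaks in chr19:37000001-38000000 and 14 in chr19:48000001-49000000. Without such bins on any autosome, 67.7% of the siFOXA1 peaks on the 4 chromosomes and 47.5% of those elsewhere were gained, a difference of 20.1 points. The siFOXA1 gained difference was therefore the least stable value, between 0.437 and 20.1 points by the peaks counted.

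The densest bin of the parental DMSO list on these chromosomes was chr19:48000001-49000000, with 30 peaks. The siControl list had 35 peaks there, PladB 33, WX-02-23 31, WX-02-43 30 and siFOXA1 14. In the engineered lines it held 2, 8 and 7 peaks in WT without dox, with dox and with WX-02-23, and 5, 2 and 4 in C258A. The bin thus kept its number with both stereoprobes, unlike the densest bins of the other 3 chromosomes. In chr17:46000001-47000000 there were 24 peaks with DMSO, 10 with WX-02-23 and 12 with WX-02-43, and in chr16:52000001-53000000 there were 23, 13 and 16. In chr22:24000001-25000000 there were 18, 7 and 9, and none of these 3 bins held a siFOXA1 peak. In WT with dox and DMSO the 3 bins held 12, 21 and 5 peaks, and in C258A with dox and DMSO 2, 3 and 3.

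In both engineered lines the interval of the kept difference with WX-02-23 included 0, unlike that of parental cells (-8.76 to -4.75). The C258A interval nevertheless overlapped the parental one. In WT cells with dox, 956 of 1526 DMSO peaks were kept with WX-02-23 (62.6%, 60.2 to 65.0), against 60.8% elsewhere, a difference of 1.82 points (-0.703 to 4.27), or 4.25 weighted to the scores of the members. In the fifth and the sixth of 10 score bins the kept shares were 73.9% against 63.6% and 65.4% against 53.5%, with no overlap of intervals. Lost peaks numbered 570, or 37.4%, beside 39.1% of all autosomal peaks. Gained peaks numbered 376 of 1339, or 28.1%, beside 24.4% of all autosomal peaks, 3.87 points above the other autosomes (1.47 to 6.40). In C258A cells 479 of 538 were kept (89.0%, 86.1 to 91.4), against 90.9%, a difference of -1.89 points (-4.85 to 0.536), or 0.0436 without chr16. Lost peaks numbered 59, or 10.97%, beside 9.16% of all autosomal peaks, and 386 of 864 were gained, 44.7% beside 41.2% of all autosomal peaks. The C258A gained difference from the other autosomes was 3.67 points (0.308 to 7.07), or 1.79 without chr22 and 6.18 without chr16. At equal list length it was 1.93 with an interval of -1.61 to 5.82 that includes 0, and weighted to score it was 1.60. The difference between cell types in this contrast was not tested. Of the WT DMSO peaks lost with WX-02-23 and called in C258A with WX-02-23, the strongest was chr19:46818472-46819164. It scored 585 in WT with dox and DMSO and 389 without dox, and 596, 175.5 and 164.98 in C258A without dox, with dox and with WX-02-23. In parental cells it scored 3100 with DMSO, 2113 with siControl, 3100 with PladB, 185 with WX-02-23 and 799.7 with WX-02-43, and it was not called with siFOXA1. The peak was thus called with WX-02-23 in parental and C258A cells and not in WT cells.

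With dox, the C258A lists fell short of the WT lists by more on gene-dense chromosomes than elsewhere. With dox and DMSO, C258A had 0.353 times the WT number of peaks on the 4 chromosomes and 0.425 times on the others, and with WX-02-23 0.645 and 0.805 times. Of 1526 WT peaks with dox and DMSO, 502 were called in C258A (32.9%, against 39.4% elsewhere, difference -6.48 points, -8.86 to -4.02, or -9.86 without chr16 and -3.49 weighted to score). The 1024 that were not made up 67.1%, beside 60.9% of all autosomal peaks, and 35 of the 538 C258A peaks, 6.51% beside 6.34%, had no WT peak. With WX-02-23 in both lines, 649 of 1339 WT peaks were called in C258A (48.5%, against 57.4%, difference -8.94 points, -11.7 to -6.19). The 690 others were 51.5%, beside 43.1% of all autosomal peaks, and 220 of the 864 C258A peaks, 25.5% beside 28.6%, had no WT peak. Without dox, 500 of 615 WT peaks were called in C258A (81.3%, against 85.8%, difference -4.46 points, -7.82 to -1.47, or -1.90 without chr17). The remaining 115 were 18.7%, beside 14.6% of all autosomal peaks, and 327 of the 823 C258A peaks, 39.7% beside 42.5%, had no WT peak. The kept difference between the lines thus had the same sign without dox.

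Compared with parental DMSO, which differs from noDox in the PHF5A background as well as in the library, 577 of the 2529 parental peaks were called in WT noDox (22.8%, against 27.0% elsewhere, difference -4.23 points, -5.91 to -2.48, or -2.63 without chr19). At equal list length this difference was -1.74 with an interval of -5.69 to 2.06 that includes 0, weighted to score it was -2.17, and with a 50% reciprocal overlap it was -1.40. The 1952 others were 77.2%, beside 73.3% of all autosomal peaks, and 32 of the 615 WT noDox peaks, 5.20% beside 4.39%, had no parental peak. In C258A noDox 765 were called (30.2%, against 39.0%, difference -8.78 points, -10.6 to -6.87). The 1764 others were 69.8%, beside 61.7% of all autosomal peaks, and 52 of the 823 C258A noDox peaks, 6.32% beside 7.26%, had no parental peak. The gained difference of C258A noDox was -1.01 points (-2.56 to 0.917), but -5.59 (-8.53 to -2.43) at equal list length. The noDox lists were thus largely subsets of the parental DMSO list on these chromosomes as on the other autosomes. The most reduced was chr19, at 0.188 times the parental number in WT and 0.257 times in C258A.

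**Figure D5:**
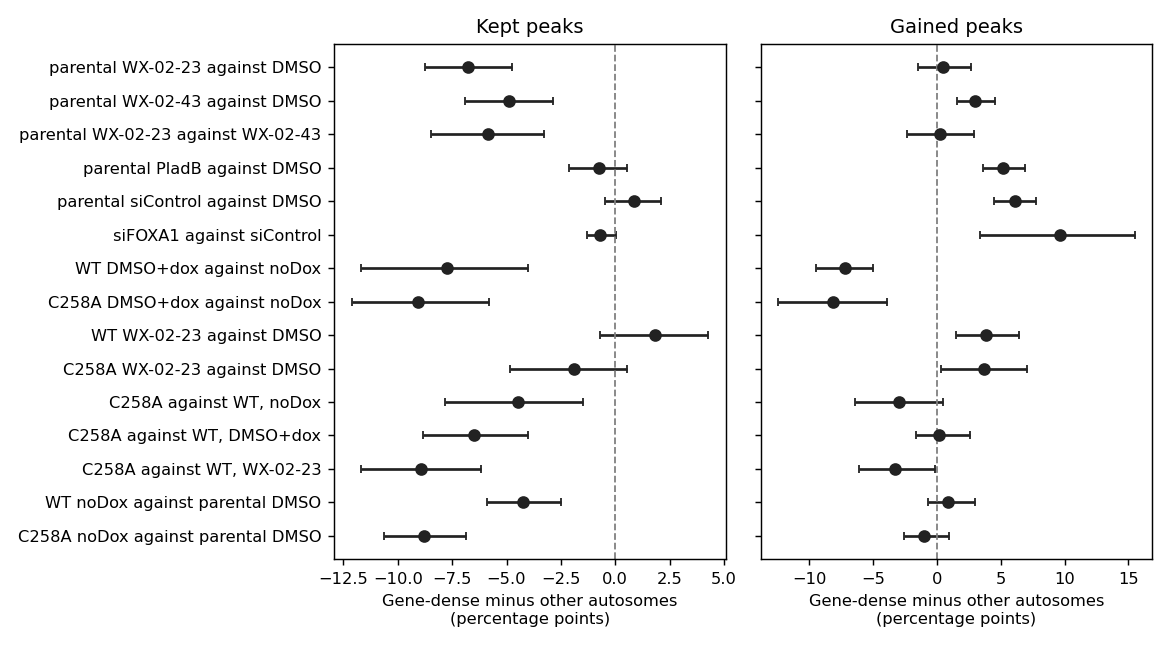
Difference in kept share (left) and gained share (right), in percentage points, between chr16, chr17, chr19 and chr22 and the other 18 autosomes, for each of the 15 comparisons (vertical axis). Points are differences, bars 95% counting intervals and the dashed line is no difference. Kept differences run from -9.05 for C258A induction to 1.82 for WX-02-23 in WT cells, and gained differences from -8.12 for C258A induction to 9.63 for siFOXA1.

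Scores on the 4 chromosomes were slightly lower and widths nearly the same. The median score was 216 against 230.15 with DMSO in parental cells, 178 against 193 in WT with dox and DMSO, and 154 against 166 in C258A with dox and DMSO, and it was lower on the 4 chromosomes in all 12 lists. Of the 2951 peaks in the top 10% of the parental DMSO list, 220 lay on the 4 chromosomes, 7.46% (6.56 to 8.46), below their 8.57% of the list. Median widths were 684 against 685 bp in parental DMSO and 639 against 635 bp in WT with dox and DMSO. The sparseness of these chromosomes thus came with little difference in peak width. Scores of exactly 3100 occurred in 248 DMSO peaks, 15 of them on the 4 chromosomes, so the order among the strongest peaks is partly one of ties.

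Of the strongest parental DMSO peaks by chromosome, chr17:37858944-37860415 scored 3194, chr16:21526309-21527950 scored 3100, chr19:42408083-42409698 scored 3100 and chr22:36018032-36019793 scored 2224. The chr17 peak was called in 11 lists, with 1812 with WX-02-23 and 1576 with WX-02-43, 1146 in WT noDox, 1053 in WT with dox and DMSO, 1374.5 in C258A noDox and 401 in C258A with dox and DMSO. The chr19 peak was called in all 12, with 935 with WX-02-23, 1486 with WX-02-43, 93.65 with siFOXA1, 1152 and 623 in WT without and with dox, and 1466 and 199 in C258A. The chr22 peak was called in 10, with 1226 with WX-02-23 and 684 with WX-02-43, 284 and 124 in WT without and with dox, and 341 in C258A without dox and none with dox. The chr16 peak was called in 11, with 1281 with WX-02-23 and 3122 with WX-02-43, 542 and 1261 in WT without and with dox, and 1010.4 and 609.5 in C258A. Scores of different lists have no common scale, so these values are set side by side and show no change. Genes at these places are not given, since no annotation of hg19 was used here.

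The promoters of these chromosomes held the forkhead core less often. Among RefSeq promoters (GRCh38.p14, 300 bp each), TGTTTAC or TGTTTGC on either strand occurred in 275 of 5517 on the 4 chromosomes, 4.98% (4.44 to 5.59), and in 2153 of 28208 on the others, 7.63% (7.33 to 7.95), with 7.20% over all. Their median GC content was 62.7% against 57.3%. This is a property of promoters in another build and was not set against single peaks, so its part in the peak densities was not tested.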

How the data were processed

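Each of the 12 FOXA1 libraries had its own peak list, deposited by the authors as a headerless BED file whose 5 columns give chromosome, start, end, name and score. Reads were converted with bcl2fastq and aligned with Bowtie2 to hg19, as far as the submitters' processing notes name tools and build without their roles. Peak names begin with MACS. The caller's version, its thresholds and its control library are not given in the sources used here. The score of each peak is the authors' deposited value; none was below 90, and the highest per list lay between 3100 and 3233. The 3 input samples were not analysed here. Starts were read as counted from 0 and are printed from 1.

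Peaks per Mb and genes per Mb used 1 Mb bins from position 0 to the last peak of any list. Overlap, shares (Wilson 95% intervals) and differences (Newcombe 95% intervals) were computed in Python 3.11.15 with numpy 2.4.6 and scipy 1.17.1, and the overlap code was tested on simulated data. RefSeq's gene table (GRCh38.p14) served only for gene counts per chromosome, and its promoter table only for promoter motifs and GC content. Alternatives were a 50% reciprocal overlap, equal list lengths, weighting to the members' scores, occupied bins only and leaving out each chromosome. Adding chr11, and leaving out bins with at least 10 siFOXA1 peaks, were chosen after seeing the data. Named peaks were the highest DMSO peak and densest DMSO bin of each chromosome, and the 3 highest-scoring peaks lost or gained with each stereoprobe, kept with siFOXA1, gained on WT induction, or lost with WX-02-23 in WT but called in C258A. The text gives those the results turn on. The members, lists and comparisons were chosen with earlier results of these data known.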

Additional observations from a re-analysis of the deposited data

Results flagged for a closer look

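With WX-02-23 the values on the gene-dense chromosomes differed in sign between kinds of cell. Their share of the autosomal list differed from that with DMSO by -1.02 points in parental cells, by 0.376 points in WT cells and by 0.176 points in C258A cells. The kept difference from the other autosomes was -6.77 points in parental cells, 1.82 points in WT cells and -1.89 points in C258A cells, where the intervals of the WT and C258A values include 0. The intervals of the shares with DMSO and with WX-02-23 overlapped in both engineered lines. Overlap of 2 intervals does not settle whether the shares differ, and no interval was computed for the difference in shares. Whether the share moved the other way in these lines was thus not tested. Each of these values rests on 1 library per condition, and the difference between the cells was not tested.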

How the results depend on the processing

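Of 336 alternative values for 42 results, 268 stayed within the counting interval of the reported value, 67 moved beyond it and 1 was counted as changing side. That 1 was the siControl density ratio, which was 1.0005 without chr16. A change of side was counted only where the reported interval left out equality. Results whose interval included equality could change sign without being counted so. The siFOXA1 kept difference did, from -0.683 to 1.73 points at equal list length. Leaving out each chromosome in turn gave density ratios of 0.793 to 0.924 for parental DMSO, 0.864 to 1.0005 for siControl, 0.837 to 0.968 for PladB, 0.703 to 0.786 for WX-02-23, 0.772 to 0.870 for WX-02-43 and 0.814 to 1.07 for siFOXA1. In WT they were 0.418 to 0.513 with dox and DMSO and 0.460 to 0.548 with WX-02-23, and in C258A 0.602 to 0.680 without dox, 0.344 to 0.438 with dox and DMSO and 0.369 to 0.452 with WX-02-23. Kept differences under the same omission ran from -7.36 to -3.83 for WX-02-43, -7.10 to -3.10 for WX-02-23 against WX-02-43, -12.5 to -6.90 for C258A induction, -9.86 to -5.17 for C258A against WT with dox and DMSO, and -10.4 to -6.81 for C258A noDox against parental DMSO.

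Over occupied bins the density ratio was 0.914 for parental DMSO, 0.998 for siControl, 0.964 for PladB, 0.796 for WX-02-23, 0.869 for WX-02-43, 0.504 for WT with dox and DMSO and 0.545 for WT with WX-02-23, which is higher by construction, as empty bins are more common on these chromosomes. At equal list length it was 0.735 for parental DMSO, 0.805 for siControl, 0.797 for PladB, 0.673 for WX-02-23, 0.677 for WX-02-43, 0.391 for WT and 0.359 for C258A with dox and DMSO. With chr11 added it was 0.828 for WX-02-23, 0.864 for WX-02-43, 0.799 for WT noDox, 0.584 for WT with dox and DMSO, 0.6097 for WT with WX-02-23, 0.747 for C258A noDox, 0.535 for C258A with dox and DMSO and 0.549 for C258A with WX-02-23.

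Weighted to the members' scores, the kept difference was -4.42 for WX-02-23, -2.265 for WX-02-43, -3.49 for C258A against WT with dox and DMSO, -2.17 for WT noDox and -6.47 for C258A noDox against parental DMSO, and the siControl gained difference was 4.196. With a reciprocal overlap of 50% the kept difference was -1.74 for WT induction and -1.40 for WT noDox against parental DMSO, and the gained difference -2.08 for C258A against WT with dox and DMSO and -1.89 for WT noDox against parental DMSO. At equal length the siFOXA1 kept and gained differences were 1.73 and 0.437, the kept difference of WT noDox against parental DMSO was -1.74 and the gained difference of C258A noDox was -5.59. Without bins of at least 10 siFOXA1 peaks the siFOXA1 gained difference was 20.1. Except as said for occupied bins, the cause was not tested. Depth is unknown, so a peak missing from a list was not called there and is not shown to be absent. No paired analysis was possible because each group has 1 library.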
